A study of Mus musculus with 15 samples.

Results

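The genes described here encode enzymes that oxidise, hydrolyse or conjugate foreign chemicals and reactive metabolites: cytochrome P450s (CYP), flavin-containing monooxygenases (FMO), aldehyde dehydrogenases (ALDH), carboxylesterases (CES), epoxide hydrolases (EPHX), glutathione S-transferases (GST), microsomal glutathione S-transferases (MGST) and UDP-glucuronosyltransferases (UGT). They were chosen by the start of the gene symbol, a rule that uses no measured value but was set with earlier results of these data known, and Cyp2f2 and the retinal dehydrogenases Aldh1a1, Aldh1a2 and Aldh1a3 were left out. The rule found 65 of the 10222 gene symbols in the expression table. Fmod, which shares only its first letters with the FMO genes and encodes the matrix proteoglycan fibromodulin, was set aside, so that 64 enzymes remained. These were 19 CYP, 17 GST, 12 ALDH, 4 CES and 3 each of EPHX, FMO, MGST and UGT.

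Detoxification is usually described in phases. Phase I enzymes such as the P450s, FMOs, aldehyde dehydrogenases, carboxylesterases and epoxide hydrolases add or uncover a reactive group, and phase II enzymes such as the GSTs and UGTs attach glutathione or a sugar acid to it so that the product can be exported. In the lung, the club cells of the airway lining are known for abundant P450s, and several P450 and GST genes are classical targets of the ligand-activated receptor AHR or of the oxidant-sensing factor NRF2 (gene Nfe2l2).

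RNA was sequenced from cells sorted directly from C57BL/6 mice, with no treatment named, that carried a heterozygous Il33-citrine reporter, an allele in which a fluorescent protein marks cells that transcribe Il33. Ages and sexes were not given. There were 5 populations with 3 libraries each, from independent experiments: mesenteric white adipose tissue (WAT) mesenchymal stromal cells (MSC) that were citrine positive (WAT Il33+ MSC) or citrine negative (WAT Il33- MSC), citrine-positive MSC of the lung (Lung Il33+ MSC), CD31+ endothelial cells of WAT (WAT endothelial) and EpCAM+ epithelial cells of the lung (Lung epithelial). The libraries held between 42711843 and 60773158 alignments, and values are RPKM, reads scaled to transcript length and library size, summed over the transcripts of a symbol.

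Marker genes were checked against the labels. Il33 itself ran from 38.7 to 78.5 RPKM in the WAT Il33+ MSC libraries and from 4.31 to 6.76 RPKM in the WAT Il33- MSC libraries. The club cell gene Scgb1a1 took 57.7% to 62.9% of all summed RPKM in the epithelial libraries, and Epcam averaged 31.4 ± 7.38 RPKM (SD, n = 3) there. In the endothelial libraries the 7 stromal markers summed to between 1776 and 3676 RPKM, against 5336 to 7166 RPKM in WAT Il33+ MSC. In bulk RNA, fewer cells of a type and less RNA per cell cannot be told apart.

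In summed RPKM, the 64 enzymes were most abundant in the lung epithelium. Their summed level was 1705, 2418 and 2430 RPKM in the epithelial libraries, against ranges of 992 to 1181 RPKM for WAT Il33+ MSC, 653 to 979 RPKM for WAT Il33- MSC, 970 to 1052 RPKM for the lung stroma and 565 to 949 RPKM for endothelial libraries. Cyp2s1 and Gstm1 held 23.0% and 20.7% of the mean epithelial sum. RPKM does not fix the total of a library, and these sums were not scaled to that total. The highest mean fell in the epithelium for 57.8% of the enzymes and for 28.6% of all genes. All 3 epithelial libraries lay above the other 12 for 21 of the 64 enzymes (32.8%), where 12.5% of all genes showed this. They lay below the other 12 for 8 enzymes (12.5%), a share close to the 12.8% of all genes. In each other population 1 enzyme had all 3 libraries above the rest: Fmo2 for WAT Il33+ MSC, Cyp1b1 for WAT Il33- MSC, Ces2g for Lung Il33+ MSC and Ephx3 for WAT endothelial cells, where 0.851%, 2.0%, 2.96% and 3.75% of all genes did.

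**Figure D1:**
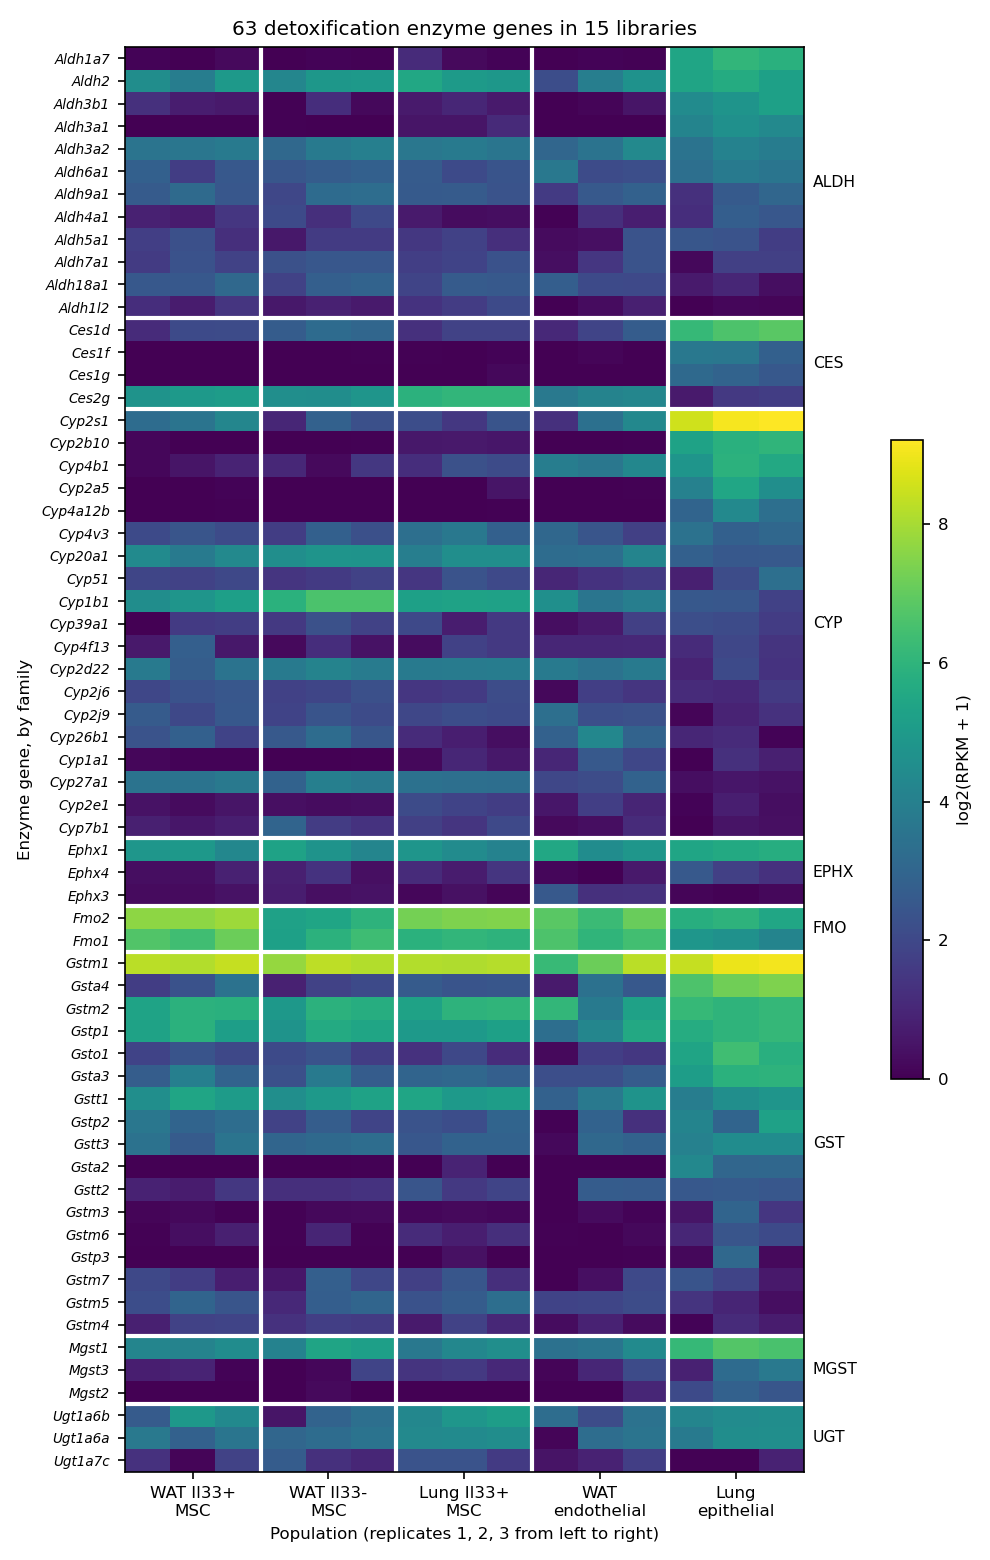
Level of 63 of the 64 enzymes (rows, grouped by family and ordered by epithelial mean) in each of the 15 libraries (columns), as log2(RPKM + 1). The bright block at the right is the epithelium, where genes such as Cyp2s1, Cyp2b10 and Ces1d were high in all 3 libraries, while Fmo2, Fmo1, Ces2g and Cyp1b1 were brighter to the left.

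The families divided the total differently in each population. The CYP family summed to 671 ± 155 RPKM (SD, n = 3) in the epithelium and to between 98.8 and 163 RPKM on average in the others. The GST family had the largest mean sum in every population, from 277 ± 149 RPKM in WAT endothelial cells to 921 ± 185 RPKM in the epithelium.

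**Figure D2:**
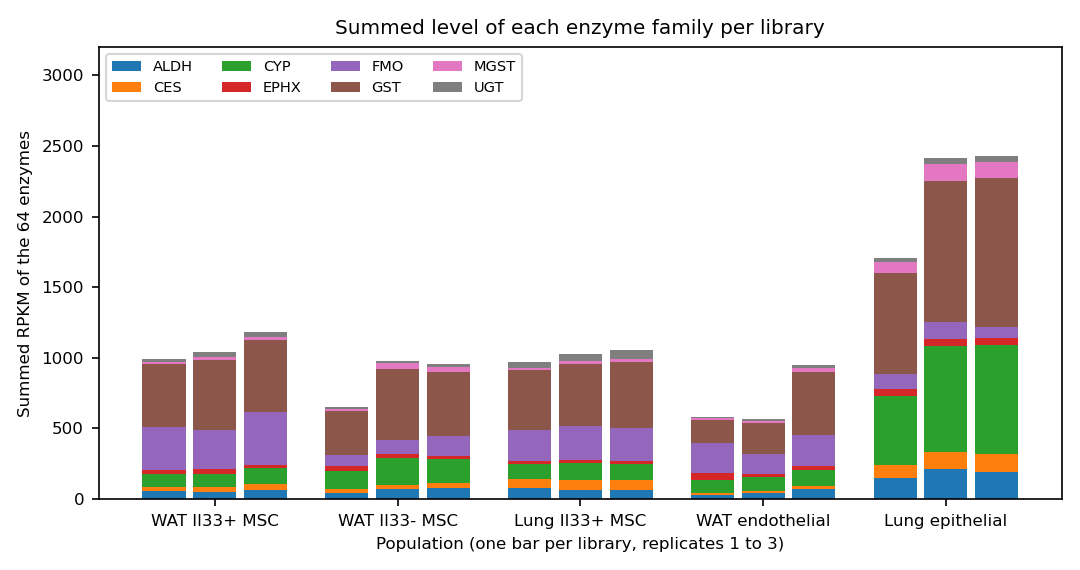
Summed RPKM of each enzyme family, one stacked bar per library. The epithelial bars reach 1705, 2418 and 2430 RPKM, with a larger CYP part than in the other libraries, and the FMO part is widest in WAT Il33+ MSC.

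Gstm1, a mu class GST, was the most abundant enzyme in the 4 populations other than epithelium, with means of 308 ± 24.6 RPKM among WAT Il33+ MSC, 269 ± 50.6 RPKM among WAT Il33- MSC, 284 ± 7.23 RPKM for the lung stroma and 173 ± 118 RPKM for the endothelium. In the epithelium it came second, at 453 ± 101 RPKM, to the P450 Cyp2s1 at 502 ± 114 RPKM. After Gstm1, Fmo2 and Fmo1 ranked next in WAT Il33+ MSC and WAT endothelial cells, Cyp1b1 in WAT Il33- MSC, and Fmo2 and Ces2g in Lung Il33+ MSC. The epithelial order went on with Gsta4, Ces1d and Mgst1, at 139 ± 36.4, 94.9 ± 22.4 and 90.6 ± 18.3 RPKM. The most even enzyme was Aldh3a2, a fatty aldehyde dehydrogenase, whose highest population mean was 1.16 times the lowest, and the least even of those with every mean at 1 RPKM or more was Cyp2s1, at 158 times.

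4 upstream sequences are shown for genes whose levels by population are described next: Cyp1a1 and Cyp1b1 are a pair of P450s of the same family and both classical AHR targets, Gsta3 is an alpha class GST, and Cyp4b1 is the P450 shared by endothelium and epithelium. Each is the 250 bases before the RefSeq start site in GRCm38.p6 (mm10), 5′ to 3′ on the gene's strand: Cyp1a1 on the plus strand at chr9:57697363-57697612, Cyp1b1 on the minus strand at chr17:79715062-79715311, Gsta3 on the plus strand at chr1:21240335-21240584 and Cyp4b1 on the minus strand at chr4:115647722-115647971. Capitals mark the core of the xenobiotic response element, GCGTG or its reverse complement CACGC, and the antioxidant response element core TGACNNNGC, both searched on both strands.
Cyp1a1: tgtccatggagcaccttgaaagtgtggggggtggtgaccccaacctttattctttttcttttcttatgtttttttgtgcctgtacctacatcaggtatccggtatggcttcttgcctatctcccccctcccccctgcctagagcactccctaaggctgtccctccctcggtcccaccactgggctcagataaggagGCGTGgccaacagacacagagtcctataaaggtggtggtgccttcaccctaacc
Cyp1b1: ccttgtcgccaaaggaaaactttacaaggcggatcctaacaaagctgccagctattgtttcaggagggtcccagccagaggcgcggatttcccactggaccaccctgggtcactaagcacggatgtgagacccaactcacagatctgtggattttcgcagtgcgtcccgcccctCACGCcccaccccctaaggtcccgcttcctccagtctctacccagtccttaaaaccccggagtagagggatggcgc
Gsta3: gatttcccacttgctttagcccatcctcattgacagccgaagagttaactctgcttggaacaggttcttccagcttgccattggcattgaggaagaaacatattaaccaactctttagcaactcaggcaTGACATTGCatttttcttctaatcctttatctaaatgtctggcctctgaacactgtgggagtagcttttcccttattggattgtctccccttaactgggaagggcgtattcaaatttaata
Cyp4b1: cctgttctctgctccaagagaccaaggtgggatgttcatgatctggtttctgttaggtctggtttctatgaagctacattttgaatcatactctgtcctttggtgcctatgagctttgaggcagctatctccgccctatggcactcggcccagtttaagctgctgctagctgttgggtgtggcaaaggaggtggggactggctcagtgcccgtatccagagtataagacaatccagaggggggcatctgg
Cyp1a1 and Cyp1b1 each held 1 GCGTG core, Gsta3 held 1 TGACNNNGC core, and Cyp4b1 held none of either in this window. Over the 49 enzymes with a RefSeq window, 18 (36.7%) held a GCGTG core and 4 (8.16%) a TGACNNNGC core, where 28.2% and 10.2% of all 32851 windows did. Each enzyme gave 1 window here, while a gene with several start sites gave several of the 32851, so the shares are on unlike units. A match is a description of letters and not of binding.

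The lung epithelium was compared with Lung Il33+ MSC to ask how the enzymes differ between the lining and the stroma of the same organ. Genes with at least 1 RPKM in 3 of the 6 libraries were tested with limma on log2(RPKM + 1), and fold changes are on that scale, which understates those of low genes. Of the 59 of 64 enzymes tested, 24 were higher in the epithelium (40.7%) and 15 were lower (25.4%) at a limma adjusted p under 0.05. Of all 9352 genes tested, 18.5% were higher and 24.4% lower. 14 of the 59 reached 1 RPKM in libraries of 1 population only and so had to differ to be tested, and 9 of the 24 and 5 of the 15 were among them. They include Aldh4a1, Ces1f, Ces1g, Cyp2a5, Cyp2b10, Cyp4a12b, Gsta2 and Mgst2 among the higher. Among the lower they are Aldh1l2, Cyp27a1, Cyp2e1, Cyp7b1 and Ugt1a7c. The filter fixed the direction of these genes, so their tests below add no support for it. Aldh1a7, Aldh3a1 and Aldh3b1 of the higher, and Aldh18a1, Cyp2j9 and Gstm5 of the lower, reached 1 RPKM in only 1 library of the other population. They passed the filter through the population where they were high. The filter thus favoured their direction, and their tests below are no independent support for it. The median log2 fold change was 0.58 over the enzymes tested and -0.13 over all genes.

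Among the P450s, 5 of 17 tested were higher in the epithelium and 7 were lower, beside 18.5% and 24.4% of all genes. Cyp2a5, Cyp2b10 and Cyp4a12b of the higher, and Cyp27a1, Cyp2e1 and Cyp7b1 of the lower, were tested through 1 population only. Cyp2s1, an extrahepatic P450 of surface epithelia, was at 374, 539 and 594 RPKM in the epithelial libraries and at 3.48, 1.83 and 4.25 RPKM in Lung Il33+ MSC. The groups were far apart, and the log2 fold change was 6.93 ± 0.29 (SE; limma adjusted p = 7.01e-07). Cyp2b10, known as the phenobarbital-inducible P450 of liver, was at 39.1, 56.1 and 63.96 RPKM against 0.52, 0.56 and 0.46 RPKM (log2 fold change 5.13 ± 0.25, adjusted p = 9.03e-07 by limma).

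Cyp2a5, a coumarin-oxidising P450, was at 15.6, 42.6 and 22.5 RPKM in the epithelium and listed at 0.00, 0.01 and 0.43 RPKM in the lung stroma, a log2 fold change of 4.51 ± 0.37 (limma adjusted p = 1.23e-05). 40.8% of its 50-base words also occur in other genes, chiefly Cyp2a4, so its reads may be shared. Cyp4b1, a fatty acid and furan oxidising P450 known from lung, was at 26.9, 59.8 and 46.1 RPKM against 1.28, 3.89 and 3.27 RPKM, and Cyp4a12b was at 6.92, 19.0 and 9.25 RPKM against at most 0.05 RPKM. Both groups of libraries were separate for each, with log2 fold changes of 3.57 ± 0.37 and 3.53 ± 0.36 (limma adjusted p = 5.17e-05 and 4.57e-05). Cyp4a12b shares 49.4% of its words with Cyp4a12a.

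The 7 P450s that were lower in the epithelium were Cyp1b1, Cyp20a1, Cyp27a1, Cyp2d22, Cyp2e1, Cyp2j9 and Cyp7b1. Cyp1b1, which oxidises oestrogens and polycyclic aromatic hydrocarbons, was at 4.78, 4.66 and 2.40 RPKM in the epithelium and at 36.8, 39.1 and 37.3 RPKM in Lung Il33+ MSC (log2 fold change -3.01 ± 0.26, adjusted p = 1.55e-05 by limma). Cyp27a1 and Cyp7b1 are sterol hydroxylases rather than drug-metabolising enzymes. Cyp27a1 was at 0.28, 0.48 and 0.37 RPKM against 9.83, 9.27 and 8.96 RPKM (-2.91 ± 0.25), and Cyp7b1 at 0.00, 0.41 and 0.31 RPKM against 2.36, 1.71 and 3.05 RPKM (-1.44 ± 0.28). Cyp2d22 averaged 1.87 ± 1.16 RPKM against 13.2 ± 0.48 RPKM (-2.38 ± 0.31), and Cyp20a1, a P450 without a settled substrate, 5.31 ± 0.76 against 19.8 ± 4.55 RPKM (-1.70 ± 0.25). The ethanol-oxidising Cyp2e1 was low in both, at 0.35 ± 0.34 and 2.70 ± 0.57 RPKM (-1.48 ± 0.29). The limma adjusted p of these 5 ran from 1.45e-05 to 0.00238.

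The FMO genes encode enzymes that oxidise nitrogen and sulphur atoms of drugs and amines, and Fmo1 and Fmo2 lie next to each other on chr1 between 162829561 and 162898758 (mm10). Fmo2, the main FMO of lung in most mammals, was at 53.5, 62.0 and 42.6 RPKM in the epithelium and at 154, 170.1 and 176 RPKM in the stroma. Its log2 fold change was -1.66 ± 0.21 (limma adjusted p = 0.000175). Fmo1 was also lower in the epithelium, at 27.4, 24.3 and 17.0 RPKM against 58.9, 65.5 and 61.8 RPKM (-1.42 ± 0.22, limma adjusted p = 0.000711). The groups did not overlap for either gene.

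**Figure D3:**
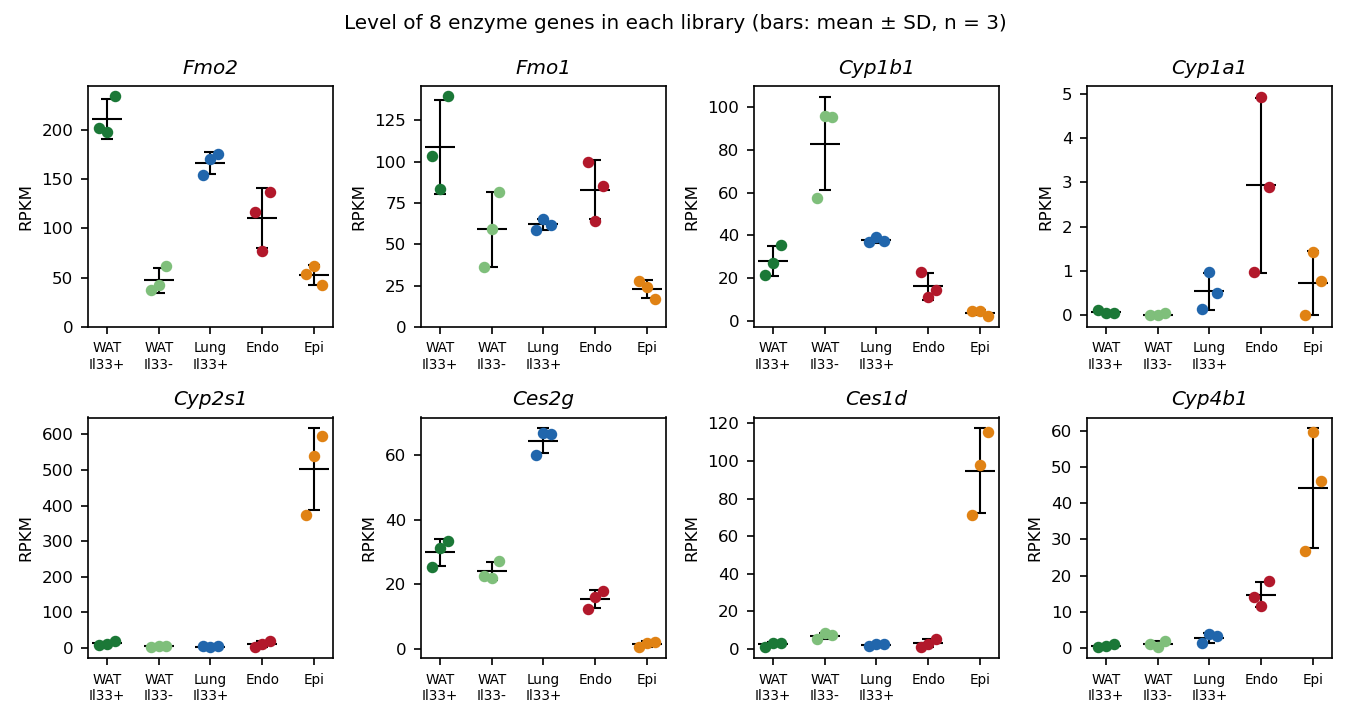
RPKM of 8 enzymes by population (WAT Il33+, WAT Il33- and Lung Il33+ stand for MSC, Endo for WAT endothelial and Epi for Lung epithelial), one point per library, with the mean and SD in black. Fmo2 is highest in WAT Il33+ MSC, Cyp1b1 in WAT Il33- MSC and Ces2g in Lung Il33+ MSC, while Cyp2s1, Ces1d and Cyp4b1 are highest in the epithelium.

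Of the 12 ALDH genes tested, 5 were higher and 2 lower in the epithelium, beside 18.5% and 24.4% of all genes. Aldh1a7, a close relative of the retinal dehydrogenases, was at 41.6, 65.6 and 56.6 RPKM there and at 1.22, 0.17 and 0.06 RPKM in Lung Il33+ MSC (log2 fold change 5.29 ± 0.33, adjusted p = 2.59e-06 by limma). Aldh3b1 and Aldh3a1 oxidise lipid-derived and aromatic aldehydes. Aldh3b1 averaged 27.8 ± 7.96 RPKM against 0.73 ± 0.23 RPKM (4.03 ± 0.28), and Aldh3a1 19.9 ± 3.43 against 0.66 ± 0.40 RPKM (3.67 ± 0.28), with limma adjusted p of 4.25e-06 and 6.86e-06. Like Aldh1a7, both passed the filter through the epithelial libraries, so it favoured this direction. Aldh2, the mitochondrial acetaldehyde dehydrogenase, was at 40.6, 50.5 and 36.6 RPKM in the epithelium and at 45.2, 31.2 and 28.3 RPKM in the stroma, so its libraries overlapped.

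Several ALDH genes that moved act in amino acid or folate metabolism and not in detoxification. Aldh4a1 and Aldh6a1, of proline and valine breakdown, were among the 5 higher genes, at 3.88 ± 2.31 and 10.99 ± 1.69 RPKM in the epithelium against 0.36 ± 0.19 and 4.24 ± 0.98 RPKM. The 2 lower genes were Aldh18a1, of proline synthesis, and Aldh1l2, of mitochondrial folate metabolism. Aldh18a1 averaged 0.62 ± 0.37 RPKM against 4.30 ± 1.38 RPKM (-1.70 ± 0.32, limma adjusted p = 0.00195), and Aldh1l2 0.08 ± 0.05 against 2.32 ± 0.86 RPKM (-1.59 ± 0.27, limma adjusted p = 0.00114). 45.0% of the words of Aldh4a1 also occur in another annotated gene, and 16.8% of those of Aldh1l2 in a gene on the opposite strand.

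Of the carboxylesterases, which cleave ester drugs and lipids, 4 were measured, and they did not move together. Ces1d, Ces1f and Ces1g lie together on chr8 between 93166072 and 93337209 (mm10), and all 3 were higher in the epithelium. Ces1d, also known as a triglyceride hydrolase, was at 71.1, 97.9 and 116 RPKM there and at 1.40, 2.55 and 2.51 RPKM in Lung Il33+ MSC (log2 fold change 4.92 ± 0.26, adjusted p = 1.32e-06 by limma). Ces1f and Ces1g averaged 9.92 ± 3.24 and 6.48 ± 1.62 RPKM in the epithelium and did not exceed 0.15 RPKM in any library of the lung stroma. Ces2g was the reverse, at 0.57, 1.87 and 2.23 RPKM in the epithelium and at 59.8, 66.6 and 66.4 RPKM in the stroma. Its log2 fold change of -4.74 ± 0.29 was the lowest of the 59 enzymes (limma adjusted p = 2.46e-06).

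Of the 3 epoxide hydrolases, Ephx1, the microsomal enzyme that opens epoxides made by P450s, was high in every population and higher in the epithelium than in Lung Il33+ MSC, at 47.4 ± 5.42 against 21.3 ± 5.43 RPKM. Ephx4 was not called, at 2.95 ± 1.81 against 1.16 ± 0.53 RPKM, and Ephx3 did not reach the level for testing.

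Among the conjugating enzymes, 7 of 15 GST and 2 of 3 MGST genes tested were higher in the epithelium, and 2 GST genes were lower. Of all genes tested, 18.5% were higher and 24.4% lower. Gsta4, which conjugates aldehydes from lipid peroxidation, was at 99.2, 147 and 170.4 RPKM in the epithelium and at 5.33, 4.26 and 4.54 RPKM in the stroma (log2 fold change 4.58 ± 0.24, adjusted p = 1.28e-06 by limma). Gsto1, an omega class GST with thioltransferase activity, was at 40.9, 83.0 and 55.1 RPKM against 1.51, 2.99 and 1.24 RPKM (4.37 ± 0.32, limma adjusted p = 6.51e-06). Gsta3, whose upstream window held the TGACNNNGC core, was at 34.1, 58.8 and 61.1 RPKM against 6.8, 7.43 and 5.86 RPKM. The groups did not overlap for any of these genes.

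Mgst1, a membrane-bound GST and peroxidase, was at 70.8, 107 and 94.4 RPKM in the epithelium and at 11.9, 18.4 and 22.4 RPKM in Lung Il33+ MSC. Mgst2 was at 3.22, 6.23 and 4.59 RPKM in the epithelium and was listed at 0 in all 3 stromal libraries. The other higher genes were Gsta2, Gstp1, Gstp2 and Gstt3, of which Gsta2, Gstp1 and Gstp2 share between 62.3% and 72.6% of their words with other genes. The Gstp2 call was lost without Lung Il33+ MSC replicate 1 or 2, without Lung epithelial replicate 1 or 3 and with all 15 libraries in the fit, with limma adjusted p from 0.0510 to 0.0905, and that of Gstp1 with all 15 libraries (0.119). Gstm1 was at 337, 496 and 526 RPKM against 284, 276 and 291 RPKM. These groups did not overlap either, but the difference missed the threshold (limma adjusted p = 0.0509; singled out after its values were seen) and passed it in 6 of 15 alternatives, with limma adjusted p over all 15 from 1.69e-05 to 0.203. One of the 6 left out Lung epithelial replicate 1 (0.0104).

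The 2 lower GST genes were Gstm5 and Gstt1. Gstm5 averaged 0.95 ± 0.68 RPKM in the epithelium and 6.17 ± 2.64 RPKM in the stroma (-1.88 ± 0.37, limma adjusted p = 0.00278), and 14.4% of its words occur in a gene on the opposite strand. Gstt1 averaged 21.1 ± 6.53 and 35.3 ± 5.39 RPKM, and its call held in 3 of 15 alternatives. Of the 3 UGT genes, only Ugt1a7c was called, at 0.31 ± 0.45 against 3.40 ± 1.23 RPKM (-1.76 ± 0.34, limma adjusted p = 0.00254). Ugt1a7c, Ugt1a6a and Ugt1a6b share most of their exons with each other and with other Ugt1a genes, and between 40.9% and 100% of their words, so their separate values are uncertain.

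**Figure D4:**
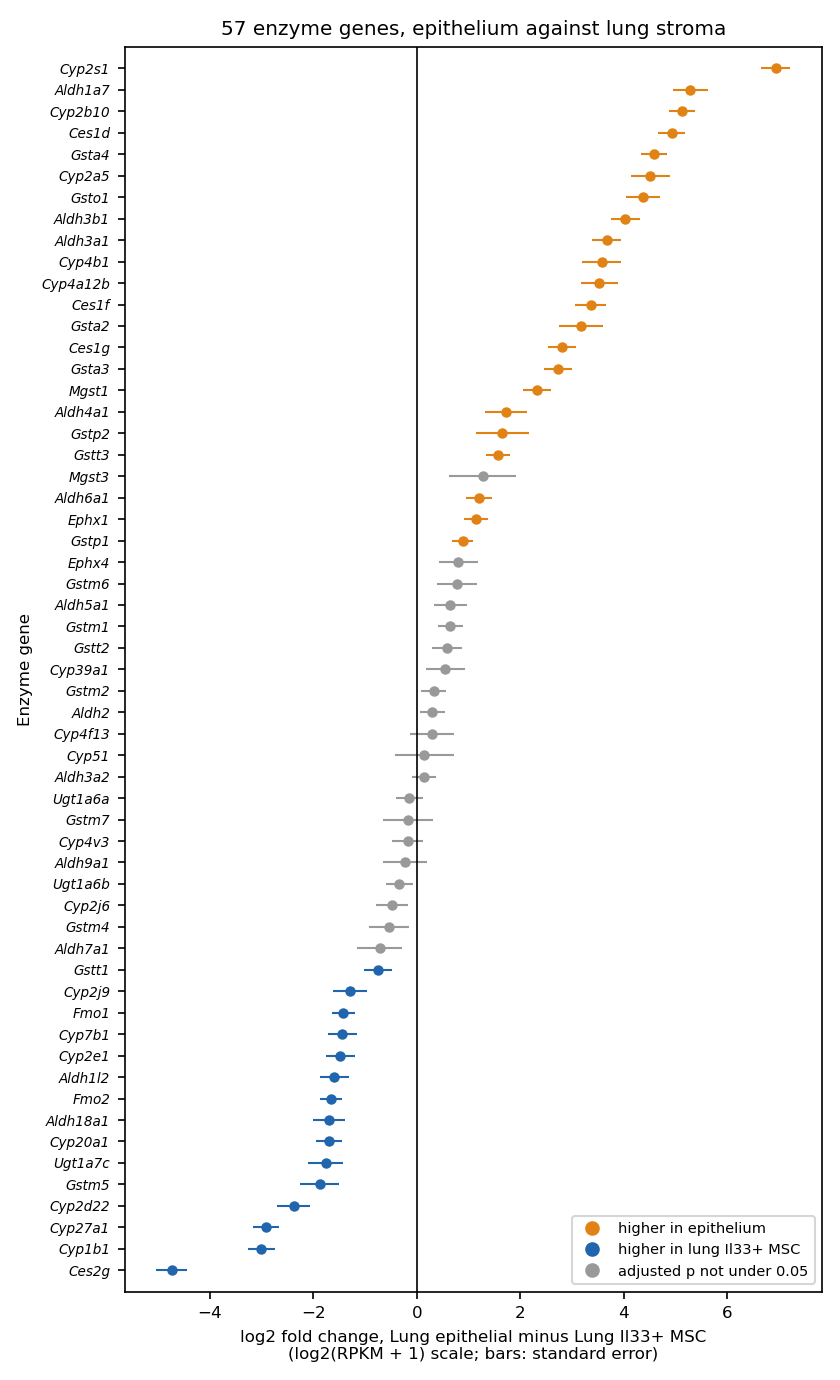
Log2 fold change of 57 of the 59 tested enzymes between Lung epithelial and Lung Il33+ MSC libraries on the log2(RPKM + 1) scale, with standard errors. Positive values are higher in the epithelium, from Cyp2s1 at 6.93, and negative values are higher in the stroma, down to Ces2g at -4.74. Mgst2, listed at 0 in the stroma, is not drawn.

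The scale of the epithelial libraries mattered for small differences. Scgb1a1 filled most of the RPKM in each of them, and its part in that scale was not tested. In this comparison the median-ratio size factors were 0.751, 1.04 and 1.06 for Lung epithelial replicates 1, 2 and 3. With median-ratio scaling of the libraries the median of all genes moved by 0.19 on the log2 scale, and 25 enzymes were then higher and 14 lower. Relative to that shift the 24 enzymes with the largest changes, 12 in each direction, kept their direction and call. For the 21 enzymes whose epithelial libraries lay above all others, the median level in the Lung Il33+ MSC libraries was 2.11%, 2.69% and 2.12% of the epithelial mean. The surfactant gene Sftpc of alveolar type 2 cells stood at 7.48%, 2.24% and 3.21% and Scgb1a1 at 0.0399%, 0.110% and 0.270% in the same libraries. The part of epithelial RNA in the low stromal values was not tested.

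The comparison of WAT Il33+ MSC with WAT Il33- MSC asked whether citrine-positive stromal cells differ in these enzymes from the citrine-negative cells beside them, in which Il33 was lower but not absent. Only 2 of 42 enzymes tested were called: Fmo2 was higher and Cyp1b1 lower in the Il33+ cells. Of all 8448 genes tested, 0.923% were higher and 0.651% lower, so 1 of 42 in each direction (2.38%) is a count of 1 gene and not a group change. The median log2 fold change was 0.05 over the enzymes and -0.01 over all genes.

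Fmo2 was at 202, 198 and 235 RPKM in the Il33+ libraries and at 37.9, 42.2 and 61.7 RPKM in the Il33- libraries. Every Il33+ library was above every Il33- library, and no library of another population reached the Il33+ values. The log2 fold change was 2.17 ± 0.24 (SE; limma adjusted p = 0.00187). Under the 15 other settings and left-out libraries the adjusted p of Fmo2 ran from 0.000257 to 0.0390 with limma. Its neighbour Fmo1 was at 104, 83.7 and 139.7 RPKM against 36.5, 59.3 and 81.8 RPKM, also without overlap, but did not pass the test. The 5 mesothelial markers summed to between 28.4 and 88.4 RPKM in WAT Il33+ MSC and between 19.7 and 27.9 RPKM in WAT Il33- MSC, and their part in the Fmo2 difference was not tested.

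Cyp1b1 was at 21.7, 27.3 and 35.6 RPKM in the Il33+ libraries and at 57.7, 95.7 and 95.4 RPKM in the Il33- libraries. The groups did not overlap, and the Il33- libraries were the highest of all 15. The log2 fold change was -1.51 ± 0.27 (limma adjusted p = 0.0195). The call was lost without WAT Il33+ MSC replicate 1 or 2 and without WAT Il33- MSC replicate 2 or 3, with limma adjusted p between 0.0682 and 0.0960, and without a filter on low values (0.116), while the direction held. The macrophage markers, summed, were also higher in the Il33- libraries, at 17.04 to 39.1 RPKM against 6.52 to 14.99 RPKM, and their part in the Cyp1b1 difference was not tested.

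3 more enzymes, singled out after their values were seen, were apart between the WAT stromal populations without passing the test. Cyp2s1 was at 8.56, 10.6 and 17.8 RPKM in the Il33+ and 1.00, 6.26 and 3.78 RPKM in the Il33- libraries (limma adjusted p = 0.137). Ces1d was at 1.18, 3.19 and 3.29 RPKM against 5.44, 8.27 and 7.32 RPKM (limma adjusted p = 0.164). Gstp2 averaged 9.01 ± 2.41 against 3.63 ± 1.72 RPKM (limma adjusted p = 0.173). The groups did not overlap for 4 enzymes with Il33+ above and for 5 with Il33+ below, 9 of the 42, where 8.84% and 8.65% of all genes tested showed the same. The proteoglycan gene Fmod, set aside above, averaged 46.8 ± 20.3 RPKM in the Il33+ and 8.73 ± 1.69 RPKM in the Il33- libraries. It passed the test (limma adjusted p = 0.00558), though not with all 15 libraries in the fit (0.0899) or without a filter on low values (0.0706).

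Between the Il33+ stroma of WAT and that of lung, 5 of 46 enzymes tested were called: Cyp2s1 and Cyp26b1 were higher in WAT, and Ces2g, Cyp2e1 and Ugt1a6a were higher in lung. Of all 8554 genes tested, 2.5% were higher in WAT and 3.5% lower, against 4.35% and 6.52% of the enzymes. The median log2 fold change was -0.03 over the enzymes and 0.03 over all genes. This comparison and the others share the WAT Il33+ MSC or Lung Il33+ MSC libraries, so they are not independent of each other.

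Ces2g was at 25.3, 31.1 and 33.3 RPKM in WAT Il33+ MSC and at 59.8, 66.6 and 66.4 RPKM in Lung Il33+ MSC, the highest libraries of the series for this gene. The log2 fold change was -1.09 ± 0.19 (limma adjusted p = 0.00629). With the filter on low values applied anew to the remaining libraries, this call was lost without Lung Il33+ MSC replicate 2. The epithelial libraries did not exceed 2.23 RPKM for Ces2g, below every stromal library. Cyp2e1 was at 0.36, 0.22 and 0.43 RPKM against 3.32, 2.60 and 2.19 RPKM (-1.46 ± 0.29, limma adjusted p = 0.0131), reached 1 RPKM in the lung libraries only, and was lost without Lung Il33+ MSC replicate 1 or 2 (limma adjusted p = 0.0551 and 0.0560). The 7 macrophage markers measured summed to between 195 and 242 RPKM in Lung Il33+ MSC and between 6.52 and 14.99 RPKM in WAT Il33+ MSC, and their part in these differences was not tested.

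Ugt1a6a averaged 9.87 ± 3.21 RPKM in WAT and 20.5 ± 1.31 RPKM in lung (-1.03 ± 0.26, limma adjusted p = 0.0435). Every one of its 50-base words occurs in other Ugt1a genes, and the call held in 4 of its 15 alternatives. On the WAT side, Cyp2s1 was at 8.56, 10.6 and 17.8 RPKM against 3.48, 1.83 and 4.25 RPKM (1.66 ± 0.33, limma adjusted p = 0.0144), far below its epithelial level. Cyp26b1, which clears retinoic acid, was at 4.19, 6.17 and 2.61 RPKM against 1.20, 0.73 and 0.27 RPKM (1.60 ± 0.35, limma adjusted p = 0.0228). Neither pair of groups overlapped. Cyp26b1 reached 1 RPKM in only 1 of the lung libraries, so the filter favoured its direction. The mesothelial markers, summed, were at 28.4 to 88.4 RPKM in WAT Il33+ MSC and at 1.11 to 3.51 RPKM in Lung Il33+ MSC, and their part in these differences was not tested. The Cyp2s1 call held in 11 of 15 alternatives and that of Cyp26b1 in 7 of 14. The Cyp2s1 call was lost without WAT Il33+ MSC replicate 3 or Lung Il33+ MSC replicate 2 (limma adjusted p = 0.0602 and 0.0748). The Cyp26b1 call was lost without WAT Il33+ MSC replicate 1 or 2 or Lung Il33+ MSC replicate 2 or 3 (limma adjusted p between 0.0548 and 0.0989).

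WAT Il33+ MSC were compared with the WAT endothelial cells. The sample titles name the MSC as mesenteric but give no fat depot for the endothelial cells. Here 1 of 41 enzymes tested was called: Cyp4b1 was lower in the stroma than in the endothelium. Of these 6 libraries it reached 1 RPKM in the endothelial ones only and so had to differ to be tested. Of all 8665 genes tested, 3.34% were lower and 0.565% higher, and no enzyme was higher in the stroma by limma, though 10 of the 41 had an unadjusted p under 0.05 in one direction or the other, as did 15.4% of all genes tested. The median log2 fold change was 0.59 over the enzymes and 0.18 over all genes, and median-ratio scaling moved the latter to 0.03. Endothelial replicate 1 stood apart, with 10.9% of its transcripts listed at 0. Of the stromal markers, only Lum was called higher in the stroma (limma adjusted p = 0.0378). Pdgfra, Pdgfrb, Col1a1, Col1a2, Col3a1 and Dcn were not (limma adjusted p from 0.0579 to 0.925). A missed call in this comparison therefore does not show that an enzyme was equal in the stroma and the endothelium.

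Cyp4b1 was at 0.13, 0.44 and 0.90 RPKM in WAT Il33+ MSC and at 14.1, 11.6 and 18.5 RPKM in WAT endothelial cells. The groups were far apart, and only the epithelial libraries were higher. The log2 fold change was -3.41 ± 0.40 (limma adjusted p = 0.00209), and the call held without each library in turn over the same genes tested. With the filter applied anew, Cyp4b1 was no longer tested when 1 endothelial library was left out. Ephx3 was at 4.94, 1.43 and 1.5 RPKM in the endothelium and at most 0.67 RPKM in every other library, but did not pass (limma adjusted p = 0.168). Cyp1a1, the P450 most used as a readout of AHR activity, was at 0.97, 4.93 and 2.90 RPKM in the endothelium, at 0.00, 1.44 and 0.77 RPKM in the epithelium, and at most 0.98 RPKM in every stromal library. It was too low to be tested.

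Cyp1a1 and Cyp1b1, whose upstream windows above each hold a GCGTG core, therefore had their highest levels in different populations. Cyp1a1 averaged 2.93 ± 1.98 RPKM in the endothelium and Cyp1b1 16.2 ± 6.17 RPKM there. In WAT Il33- MSC Cyp1a1 was at most 0.05 RPKM and Cyp1b1 averaged 82.9 ± 21.8 RPKM. Ahr itself averaged 5.63 ± 1.87 RPKM in the endothelium, 5.30 ± 2.00 RPKM in the epithelium and 1.52 ± 0.72 RPKM among Lung Il33+ MSC. In WAT stroma it averaged 0.53 ± 0.32 RPKM in the Il33+ and 0.23 ± 0.11 RPKM in the Il33- libraries.

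Genes of the same pathways that the symbol rule does not cover were taken as a pair of lists. Of 20 partners and regulators of P450s, 14 were measured. In the epithelium against lung stroma, 4 of 13 tested were higher and 0 lower, beside the 18.5% and 24.4% of all genes. Foxa2, a factor of lung epithelium, was 2.75 ± 1.28 RPKM against 0.01 ± 0.02 RPKM. It entered the test through the epithelial libraries only and so had to be higher there to be tested. Cyb5a, the cytochrome that passes electrons to P450s, was 95.4 ± 6.20 against 31.9 ± 5.14 RPKM (log2 fold change 1.56 ± 0.20, adjusted p = 0.000199 by limma). Ahr was also higher (1.31 ± 0.35, limma adjusted p = 0.0143), as was Por, the reductase that all microsomal P450s depend on, at 52.6 ± 16.2 against 23.0 ± 5.16 RPKM. Nfe2l2 was high everywhere, with means from 81.8 to 106 RPKM.

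The list of other phase I, phase II and export genes held 49, of which 38 were measured. In the same comparison 13 of 34 tested were higher and 6 lower, beside 18.5% and 24.4% of all genes. The largest increase was that of Cbr2, a carbonyl reductase of lung, at 3123 ± 544 RPKM in the epithelium against 14.2 ± 5.29 RPKM (7.73 ± 0.30). Pon1, a paraoxonase, and Akr1c14, an aldo-keto reductase, were next, with log2 fold changes of 4.02 ± 0.29 and 3.09 ± 0.30. Pon1 and Akr1c14 did not reach the level for testing between the stromal populations. They were tested here through the epithelial libraries, so the filter favoured this direction. The largest decreases were those of the sulphotransferase Sult5a1 (-3.86 ± 0.27), the alcohol dehydrogenase Adh1 (-3.79 ± 0.24) and the methyltransferase Inmt (-3.42 ± 0.33). The limma adjusted p of these 6 was at most 3.42e-05.

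Between the Il33+ stroma of WAT and lung, 5 of 32 genes of the second list were lower in WAT and 0 higher, beside 3.5% and 2.5% of all genes, led by Adh7 (-2.48 ± 0.37), Cbr2 (-1.94 ± 0.44) and Inmt (-1.82 ± 0.34), with limma adjusted p of 0.00279, 0.0263 and 0.0107. Adh7 did not reach the level for testing between WAT Il33+ MSC and WAT Il33- MSC, so it was tested here through the lung libraries. Cbr2 was far higher in the epithelium than in either stroma. The alveolar type 2 markers summed to between 35.5 and 126.7 RPKM in Lung Il33+ MSC and between 0.9 and 2.71 RPKM in WAT Il33+ MSC. The part of epithelial RNA in the Cbr2 difference was not tested. Against WAT endothelium, Ahr (-2.09 ± 0.43, limma adjusted p = 0.0308) and the drug export pump Abcb1a (-2.29 ± 0.46, limma adjusted p = 0.0278) were lower in the stroma, 1 of 13 and 1 of 31 genes of the lists, beside 3.34% of all genes. Neither gene reached the level for testing between the stromal populations. Both were tested here through the endothelial libraries, where they were high, so the filter favoured this direction. Between WAT Il33+ MSC and WAT Il33- MSC limma called 0 of 12 and 0 of 31 genes of the lists, with 1 and 3 at an unadjusted p under 0.05, where 11.6% of all genes were.

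Many of the 64 enzymes lie beside each other in the genome, in 13 runs of 2 to 7 members with gaps of at most 1000000 bases. In 6 of the 13 every member had its highest mean in the epithelium, and in 3 no member did. Of the 64 enzymes taken singly, 57.8% had their highest mean there, and runs of other genes were not counted. The 6 were Cyp2s1, Cyp2b10 and Cyp2a5 on chr7, Ces1d, Ces1f and Ces1g on chr8, Gsta4 and Gsta2 on chr9, Cyp4a12b and Cyp4b1 on chr4, Aldh3a1 and Aldh3a2 on chr11, and Aldh3b1, Gstp1, Gstp2 and Gstp3 on chr19. The last 2 runs are weak. Aldh3a2 was nearly even, its highest mean 1.16 times the lowest. Gstp3 rested on 1 epithelial library (0.15, 7.58 and 0.17 RPKM), and Gstp1 and Gstp2 share 62.3% and 72.6% of their words with other genes. In the run of 7 Gstm genes on chr3, spanning 149 kb, 4 were highest in the epithelium and the other 3 in different stromal populations. The levels within this run ranged from Gstm1 at 453 ± 101 RPKM to Gstm4 at 0.63 ± 0.56 RPKM in the epithelium. The neighbours Fmo1 and Fmo2 were both highest in WAT Il33+ MSC.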

How the data were processed

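The authors aligned reads to the mouse genome mm10 with TopHat2 in Partek and deposited RPKM values per RefSeq transcript, with the alignments of each library in the file headers. The annotation release, filters and strand setting are not given in the sources used here. RNA had been amplified with a kit (Ovation V2) before library construction, so RPKM is proportional to amplified cDNA. Of 12698 transcripts, 0.323% were below 1 RPKM in every library.

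RPKM was summed per symbol (11 of the 64 enzymes have more than 1 transcript). Each of 4 comparisons was tested on log2(RPKM + 1) by limma 3.58.1 (R 4.3.3, lmFit followed by eBayes with trend) over genes with at least 1 RPKM in at least 3 of 6 libraries, with Benjamini-Hochberg adjustment over all genes tested and a threshold of 0.05. Positive values are higher in the population named first. The study named its software but no statistical model. P-values measure the spread between libraries from independent experiments. No library pair was identical, and Pearson's r of log2 values between replicates was 0.773 to 0.962. Read counts per gene were not used here, so no counting interval is given.

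The members and lists were chosen with earlier results of these data known. Enzymes past the threshold are given with fold changes, up to 12 per direction and comparison by size. 1 of the 64 is counted but not reported by itself here. The 5 most abundant enzymes of each population and any other enzyme are given by level, and of each list up to 3 genes per direction. All 64 symbols were matched to RefSeq. RefSeq places 191 protein-coding symbols under the same rule, and the others were not analysed here. Shared sequence is the percent of a transcript's 50-base words that occur in transcripts of other genes (GENCODE M21). Upstream windows are from RefSeq, GRCm38.p6. Alternatives were other scalings, pseudocounts, filters and transcript choices, a lane covariate, a replicate block, 1 fit of all 15 libraries and each library left out.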

Additional observations from a re-analysis of the deposited data

How the results depend on the processing

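The 24 enzymes with the largest changes between the lung populations, Fmo2 between the WAT stromal populations, Cyp4b1 against endothelium and Ces2g between tissues kept their direction in every alternative, and no named enzyme reversed. Of 355 values for the 24 lung enzymes, 355 kept their call, with left-out libraries taken over the same genes tested. Calls were lost in 24 of 73 values for the 5 enzymes between tissues and in 5 of 30 between WAT Il33+ and Il33- MSC. The causes were not tested.

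Counts of enzymes called moved as follows. Without a filter on low values, 0 enzymes were lower in WAT Il33+ than in Il33- MSC (main count 1) and 0 were higher in WAT than in lung stroma (main count 2). That last count was 0 with all 15 libraries in 1 fit, 1 with the stricter filter of 3 RPKM, and 1 with the most abundant transcript. With all 15 libraries, 3 enzymes were higher and 2 lower in WAT Il33+ MSC than in endothelium. The stricter filter, which tests fewer low genes, left 9 enzymes lower in the epithelium in place of 15. Counting Fmod gave 2 higher enzymes in WAT Il33+ MSC, and leaving out the 9 enzymes that share over 40% of their words left 18 higher and 14 lower in the epithelium; these alternatives were chosen after seeing the data.

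Leaving out each library in turn, over the same genes tested, gave 0 to 1 enzymes lower in WAT Il33+ than in Il33- MSC, 0 to 2 higher and 1 to 3 lower in WAT than in lung stroma, 0 to 3 higher and 1 to 2 lower than in endothelium, and 23 to 26 higher and 14 to 15 lower in the epithelium. Keeping the genes tested was chosen after seeing the data. With the filter applied anew to the 5 remaining libraries, fewer enzymes were tested (49 to 54 of 59 in the lung), 14 to 24 were higher and 8 to 15 lower in the epithelium, Cyp4b1 fell out of the test when any 1 endothelial library was left out, and without Lung Il33+ MSC replicate 2 no enzyme, Ces2g included, was called between tissues. The replicate block gave 3 enzymes higher in WAT Il33+ than in Il33- MSC. Replicate numbers are shared across groups by name only: same-numbered deviations correlated between 0.0439 and 0.106 for the WAT stromal pair and between 0.0508 and 0.136 for the lung pair. Each WAT Il33+ library (against WAT Il33-) and each epithelial library correlated best with its own number, which was not so in the other 2 comparisons, a hint from the data and not from the design. RPKM below 1 rests on few reads, so low levels are imprecise.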
